A study of Mus musculus with 15 samples.

Results

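The genes described are 58 genes of mitosis: the kinases, cyclins and phosphatases of mitotic entry, transcription factors of the mitotic programme, and the proteins of the spindle, the kinetochore, cytokinesis and chromosome structure. They were chosen by name, and every array probe whose accession mapped to a listed symbol was taken. All 58 had a probe, and 56 passed the filter on dim probes, out of 23933 features tested over the array (16055 of them named genes). Aurkb, the kinase of the chromosomal passenger complex, and Cenpf, a kinetochore protein, each had 1 probe that was not well above background on any array, so they have no values here.

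RNA came from small-intestinal crypts of mice aged 6 to 8 weeks, 24 h after treatment, on 2-colour Agilent arrays that set Cy5-labelled crypt RNA against a Cy3-labelled universal mouse reference. The 3 groups had 5 arrays each: a control group given an IgG control antibody, a group given antibodies against Notch1 and Notch2 (N1N2), and a group given the same Notch antibodies with an antibody against the Wnt co-receptor Lrp6 at 30 mg/kg (the combined group). The study compared N1N2 with control and the combination with N1N2, and the net difference between the combination and control was added here. The series text calls its controls untreated, while the sample labels name the IgG antibody. The Notch antibodies were given as a single dose labelled 1 mg/mL, a concentration and no source used here gives the amount per mouse, the strain or the sex. The antibodies reached the whole animal, and the crypt preparations hold all epithelial cell types of the crypt rather than sorted dividing cells. The series text calls the 5 arrays of a group biological replicates without saying whether an array holds 1 mouse or a pool.

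Mitosis starts when cyclin B binds and Cdc25 phosphatases activate Cdk1, after which condensins compact the chromosomes, kinetochores attach them to spindle microtubules, and the spindle checkpoint holds the cell until every chromosome is attached. The anaphase-promoting complex then marks cyclin B and securin for destruction, separase parts the sister chromatids, and a contractile ring guided by the spindle midzone divides the cell. The messages of many of these proteins build up together in late cell cycle. Many of their promoters hold a motif called the cell cycle genes homology region (CHR), where complexes with Mybl2 and Foxm1 act, and the CCAAT box, which NF-Y binds. In the small intestine, dividing cells sit in the crypt, where Wnt signals maintain stem and transit-amplifying cells and Notch signals hold progenitors back from the secretory fate.

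Promoter windows of 6 of these genes are shown because their values frame the results: Cdk1 and Ube2c were lower after Notch blockade and Top2a was higher when the Lrp6 antibody was added, Mad2l1 moved most among the checkpoint genes and holds neither motif, Mki67 passed in neither comparison and holds both, and Cdc25b moved the other way. The windows run 5′ to 3′ on the gene's strand from 250 bases before to 30 bases after the RefSeq start, on mouse build GRCm38.p6. Capitals mark the CHR core (TTTGAA or its reverse complement TTCAAA) and the CCAAT box (CCAAT or ATTGG). They lie at chr10:69352883-69353162, minus strand for Cdk1, chr11:99024160-99024439, minus strand for Top2a, chr2:164769679-164769958, plus strand for Ube2c, chr6:66534971-66535250, plus strand for Mad2l1, chr7:135716350-135716629, minus strand for Mki67 and chr2:131186698-131186977, plus strand for Cdc25b.
Cdk1: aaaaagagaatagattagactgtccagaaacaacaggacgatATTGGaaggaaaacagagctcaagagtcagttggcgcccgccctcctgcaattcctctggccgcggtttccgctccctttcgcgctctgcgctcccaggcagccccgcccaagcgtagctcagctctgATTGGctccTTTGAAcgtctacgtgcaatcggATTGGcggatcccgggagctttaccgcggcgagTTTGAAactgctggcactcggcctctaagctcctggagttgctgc
Top2a: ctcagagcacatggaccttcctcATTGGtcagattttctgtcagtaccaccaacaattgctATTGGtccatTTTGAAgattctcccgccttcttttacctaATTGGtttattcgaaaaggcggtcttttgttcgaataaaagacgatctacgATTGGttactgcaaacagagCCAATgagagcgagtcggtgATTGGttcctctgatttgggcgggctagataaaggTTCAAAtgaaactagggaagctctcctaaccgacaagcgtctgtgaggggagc
Ube2c: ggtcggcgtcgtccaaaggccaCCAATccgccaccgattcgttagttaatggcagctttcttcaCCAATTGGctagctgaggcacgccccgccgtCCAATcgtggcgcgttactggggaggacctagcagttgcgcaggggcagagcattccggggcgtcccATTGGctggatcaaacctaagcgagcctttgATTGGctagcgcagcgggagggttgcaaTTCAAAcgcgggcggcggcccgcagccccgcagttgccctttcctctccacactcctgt
Mad2l1: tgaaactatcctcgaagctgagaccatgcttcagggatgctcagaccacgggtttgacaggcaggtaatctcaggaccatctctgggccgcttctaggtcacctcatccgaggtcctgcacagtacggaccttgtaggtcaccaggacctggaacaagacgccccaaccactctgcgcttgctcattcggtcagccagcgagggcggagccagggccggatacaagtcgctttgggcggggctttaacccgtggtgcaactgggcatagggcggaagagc
Mki67: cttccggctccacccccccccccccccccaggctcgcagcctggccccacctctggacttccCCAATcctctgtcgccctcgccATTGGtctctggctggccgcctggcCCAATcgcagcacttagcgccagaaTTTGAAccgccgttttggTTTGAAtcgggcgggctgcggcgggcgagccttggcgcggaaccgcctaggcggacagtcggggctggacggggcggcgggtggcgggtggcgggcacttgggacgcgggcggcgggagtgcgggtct
Cdc25b: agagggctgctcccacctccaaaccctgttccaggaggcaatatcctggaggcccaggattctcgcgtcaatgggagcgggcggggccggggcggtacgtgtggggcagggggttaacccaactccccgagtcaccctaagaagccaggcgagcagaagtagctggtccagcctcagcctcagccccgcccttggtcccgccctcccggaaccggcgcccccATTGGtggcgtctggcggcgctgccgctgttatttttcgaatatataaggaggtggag

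Cdk1 carries a CHR core whose first base lies 15 bases before the start and another 71 bases before it, with 3 CCAAT boxes upstream. In Ube2c the CHR core starts at -29, and 1 pair of its CCAAT matches overlaps because the letters read as a box on both strands. Over the genes described here, 47 of 58 matched a RefSeq window of 300 bases (250 before to 50 after the start), with 52 windows in all since some genes have several starts. The CHR core was found on either strand in 69.2% of these windows, against 17.9% of all 32851 windows of the table, and a CCAAT box in 75.0% against 37.4%. Counted by gene, a CCAAT box was found in 72.3% of the genes described. On the lists given below it was found in 63.8% of other mitosis genes and 63.3% of DNA replication genes. Both motifs stood together in 59.6% of the members' windows and in 6.95% of all windows. The median first base lay at -15 for the CHR core and at -67.5 for the CCAAT box. A match describes the letters in the window only. The genes without a window were Ccna2, Spc24, Incenp, Kif20a, Aurkb, Smc4, Pbk, Foxm1, Cdc25c, Dlgap5 and Tpx2.

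Each value is the log2 of crypt signal over reference signal, so a negative value means a weaker signal in crypts than in the reference, and values of different genes are not set against each other. Group means of the 56 genes lay between -2.78 and -0.31, below the reference in every group. No spot was saturated. The 15 arrays lay on 6 slides, each scanned at 1 time, and 1 slide held 2 control and 2 N1N2 arrays. Every combined array lay on slides without another group, so slide and treatment cannot be told apart for the comparisons with the combination. The remaining control and N1N2 arrays also lay on slides without another group, so slide and treatment are partly mixed in that comparison too. The share of spots well above background in red was 71.1% to 79.8% on the control arrays, 70.1% to 77.2% on the N1N2 arrays and 57.2% to 73.6% on the combined arrays, and the part of this difference in the results was not tested. Against the mean of the controls, the median over the 56 genes was 0.03, 0.06, -0.28, 0.03 and 0.15 on control arrays 1 to 5. The same median was -0.68, -0.36, -0.34, -0.33 and -0.30 on the N1N2 arrays, and 0.47, -0.10, 0.23, 0.17 and 0.09 on the combined arrays. All 5 N1N2 arrays thus lay below all 5 control arrays, although control replicate 3 came close to them. Control replicate 3 and N1N2 replicate 1 were the lowest arrays of their groups, and combined replicate 2 lay below 4 of the 5 controls. In bulk RNA, fewer dividing cells and less of these messages per cell cannot be told apart.

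**Figure D1:**
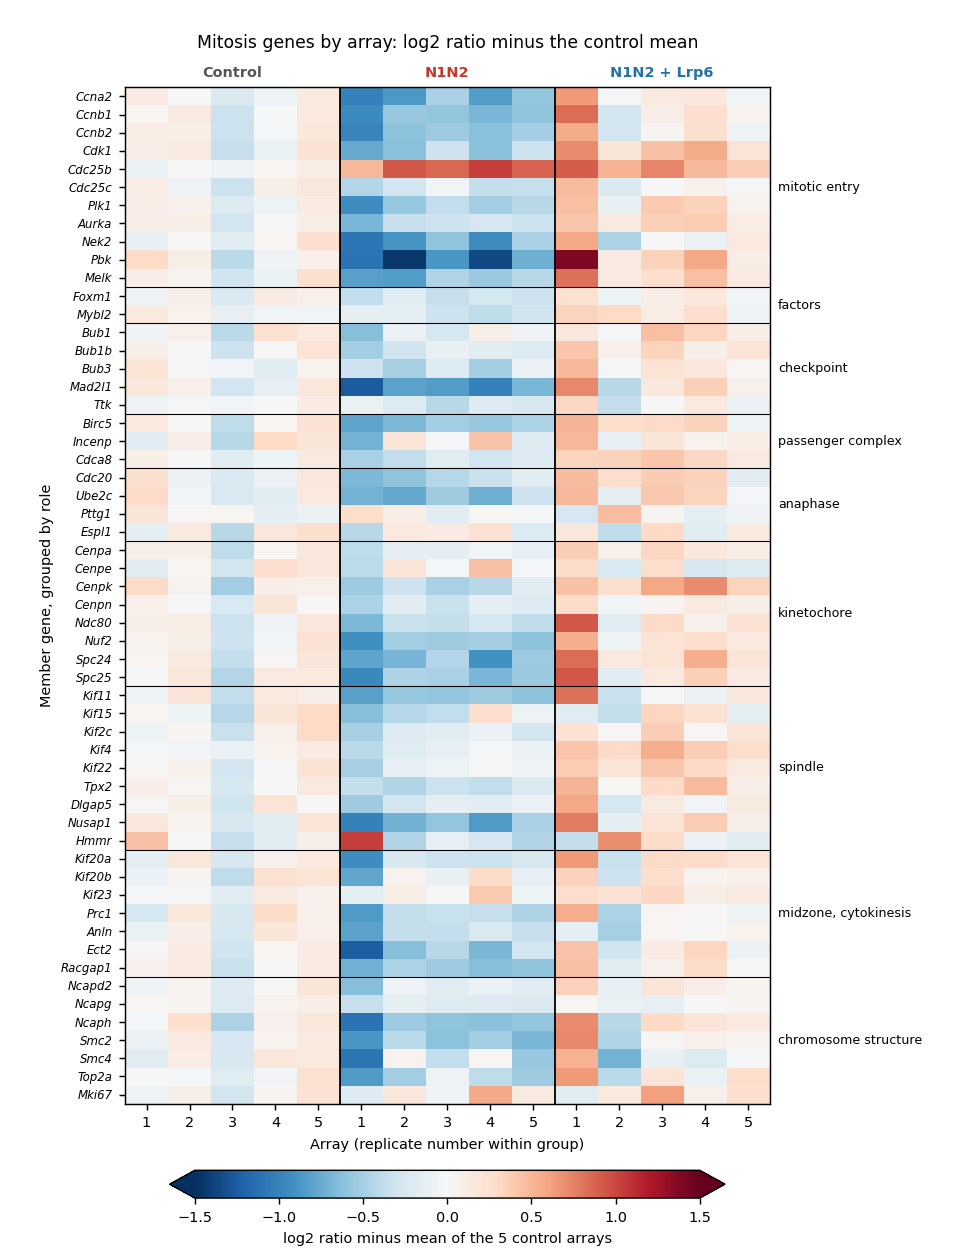
Log2 ratio of each of the 56 genes on each of the 15 arrays (columns, by group and replicate number), minus the gene's mean over the 5 control arrays, with genes grouped by role. N1N2 columns are mostly blue (median per array -0.68 to -0.30) and combined columns mostly red (-0.10 to 0.47), Cdc25b is red in all 10 treated columns, and Mki67 has no common direction.

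Blocking Notch1 and Notch2 went with lower levels of many mitosis genes and a higher level of 1. With limma and Benjamini-Hochberg adjustment over all features, 26 of 56 were lower in N1N2 crypts than in control crypts at an adjusted p under 0.05, 1 was higher (Cdc25b, a phosphatase that activates Cdk1) and 29 did not pass. Over all features, 11.7% passed in either direction (5.15% lower and 6.57% higher). The change was below 0 for 51 of the 56 genes, with a median of -0.38 against a median of 0.00 over all features. All 5 N1N2 arrays lay below all 5 control arrays for 22 genes, and above them for 1, against 5.90% and 6.14% of all features. The largest falls past the threshold were those of Pbk, Mad2l1, Nek2, Ccna2 and Nusap1.

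The count of 26 changed with the processing and with single libraries. It was 14 without control replicate 2 or without control replicate 5, 17 without N1N2 replicate 1 and 30 without control replicate 3. When arrays were multiplied to share the same median log ratio, no gene was lower (median -0.03, and 8 genes lower at an unadjusted limma p under 0.05). The array medians lay near 0 (0.012 to 0.025), so that setting does not equalize the spread of the arrays. Median centring in place of loess gave 12. On the slide that held both groups, which leaves 2 arrays against 2, the median was -0.57 and 53 of 56 genes were below 0. There 40 genes were lower at an unadjusted limma p under 0.05 and none after adjustment. That slide held N1N2 replicate 1, the lowest N1N2 array (-0.68), and control replicate 5, the highest control (0.15). Unadjusted counts over all features were not taken for these settings. In the fit as reported, 39 genes were lower and 1 was higher at an unadjusted limma p under 0.05. Of all 23933 features, 3148 were lower and 3125 higher there.

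Adding the Lrp6 antibody to Notch blockade went with higher levels of most mitosis genes. In the combined group 37 of 56 were higher than in N1N2 crypts, none was lower, and 19 did not pass (limma, adjusted p under 0.05). Over all features 16.7% passed (9.45% higher and 7.26% lower). At an unadjusted limma p under 0.05, 45 genes were higher and 1, Cdc25b, was lower, against 3653 higher and 3302 lower of all 23933 features. The median change was 0.56 against 0.00 over all features, and 53 genes were above 0. For 33 genes all 5 combined arrays lay above all 5 N1N2 arrays, and for none below, against 6.13% and 4.02% of all features. The largest rises were those of Pbk, Mad2l1, Spc24 and Nusap1. The count was 9 with arrays multiplied to share the same median log ratio. With the combined group reduced to replicate 5, its 1 array on a slide without other combined arrays, the median was 0.44.

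Both comparisons use the same N1N2 arrays, so a fall in the first and a rise in the second are not independent. Of the 56 genes, 25 were lower in N1N2 than in control and higher in the combination than in N1N2, 12 passed only as higher in the combination than in N1N2, 17 passed nowhere, Anln passed only as lower in N1N2, and Cdc25b was higher than control in both treated groups. Whether the fall and the rise of a gene differ in size was not tested. Against control itself, the combined group had 1 gene higher, Cdc25b, and none lower, with 0.376% of all features passing in either direction. At an unadjusted p under 0.05, limma had 15 genes higher and none lower, against 1837 higher and 1275 lower of all 23933 features. The median change was 0.18, and 51 of 56 were above 0. Combined and control arrays did not overlap for 4 genes, all higher in the combination (Cdc25b, Aurka, Cdca8 and Kif4), against 1.51% of all features higher and 1.07% lower.

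**Figure D2:**
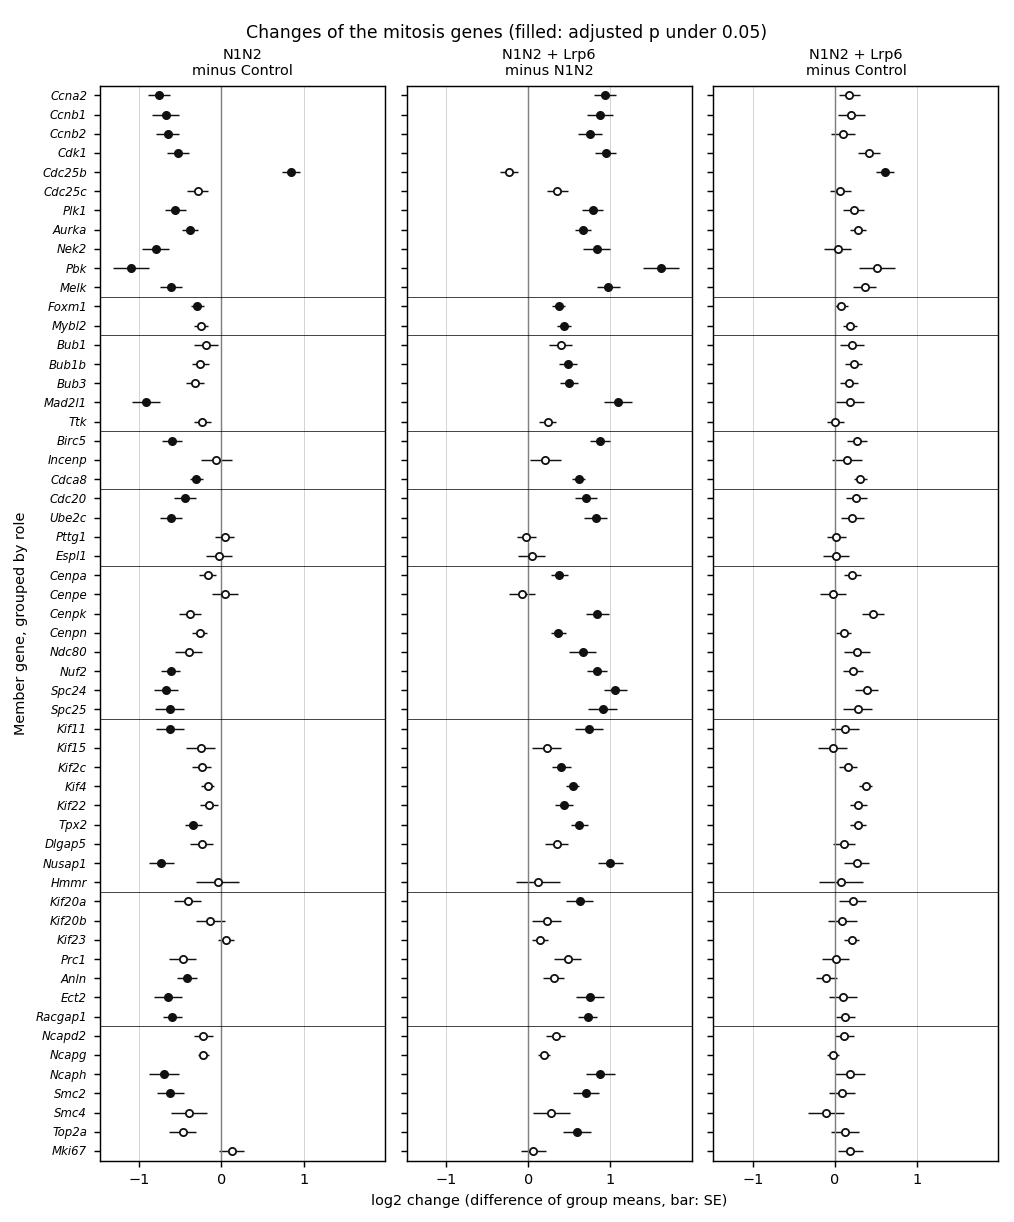
Log2 change of each of the 56 genes in the 3 comparisons (difference of group means on the x axis, bars are standard errors, filled points have a limma adjusted p under 0.05). Filled points are 26 below and 1 above 0 in the left panel, 37 above 0 in the middle panel and 1 above 0, Cdc25b, in the right panel.

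Among the genes of mitotic entry, 9 of 11 were lower in N1N2 than in control, and the same count, 9 of 11, was higher in the combination than in N1N2. Cdk1, the kinase that drives entry, had log2 ratios of -1.67, -1.64, -2.12, -1.88 and -1.55 on the control arrays, -2.52, -2.39, -2.08, -2.40 and -2.10 on the N1N2 arrays and -1.07, -1.59, -1.33, -1.22 and -1.58 on the combined arrays. Every N1N2 array lay below the controls except that replicates 3 and 5 lay just above control replicate 3, and every combined array lay above every N1N2 array. The change was -0.53 ± 0.13 (SE) in N1N2, 1.44-fold lower (limma adjusted p = 0.0171, lost in 8 of 26 alternative analyses), and 0.94 ± 0.13 for the combination over N1N2, 1.92-fold higher (adjusted p = 0.000556). Ccnb1, cyclin B1 and the partner of Cdk1, stood at -2.05, -1.93, -2.40, -2.06 and -1.92 in control crypts, at -3.02, -2.64, -2.66, -2.76 and -2.67 after N1N2 and at -1.23, -2.34, -1.97, -1.82 and -2.01 after the combination. Its N1N2 arrays lay below all others, and the combined arrays spread more widely than either other group. Cyclin B1 fell by 1.60-fold (limma adjusted p = 0.0142) and stood 1.83-fold higher in the combination than in N1N2 (adjusted p = 0.00281).

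Plk1, the polo-like kinase that acts on centrosomes, kinetochores and cytokinesis, measured -0.50, -0.53, -0.80, -0.68 and -0.47 over the controls, -1.53, -1.16, -0.96, -1.12 and -1.01 over the N1N2 arrays and -0.15, -0.71, -0.21, -0.25 and -0.54 over the combined arrays. The N1N2 arrays did not overlap with either other group, while the combined arrays lay within or above the range of the controls. Its change was -0.56 ± 0.12 in N1N2 (limma adjusted p = 0.00984) and 0.78 ± 0.12 for the combination over N1N2 (adjusted p = 0.00115). Pbk, a kinase active in mitosis, had log2 ratios of -1.39, -1.59, -2.08, -1.73 and -1.60 on the control arrays, -2.79, -3.13, -2.55, -3.03 and -2.41 on the N1N2 arrays and -0.29, -1.56, -1.33, -1.11 and -1.57 on the combined arrays. These were the largest differences among the 56 genes, with N1N2 apart from both other groups, and combined replicate 1 stood above every other array. Pbk was 2.15-fold lower in N1N2 than in control (change -1.10 ± 0.22, limma adjusted p = 0.00484) and 3.05-fold higher in the combination than in N1N2 (change 1.61 ± 0.22, adjusted p = 0.000545).

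For mitotic entry, 5 further genes changed in both comparisons. Ccna2 (cyclin A2), Ccnb2 (cyclin B2), Nek2 (a kinase of centrosome separation), Melk and Aurka (the centrosome kinase Aurora A) changed by -0.76, -0.66, -0.80, -0.61 and -0.38 in N1N2. The same genes changed by 0.93, 0.75, 0.83, 0.97 and 0.66 in the combination over N1N2. All of these passed the threshold in both comparisons, though the N1N2 call of Aurka was lost in 8 of 26 alternative analyses and turned in sign in 1 more. Cdc25c, a phosphatase that acts on Cdk1, passed in neither (changes -0.29 ± 0.13 and 0.35 ± 0.13, limma adjusted p = 0.151 and 0.0656).

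Cdc25b, another phosphatase of the same family, stood at -1.62, -1.51, -1.57, -1.48 and -1.40 in control crypts, at -1.02, -0.58, -0.66, -0.48 and -0.63 after N1N2 and at -0.61, -0.99, -0.78, -1.02 and -1.15 after the combination. It is described in full because its direction was seen to differ from that of the other genes. All 10 treated arrays lay above all 5 controls, and the control values spread over only about 0.2. The change was 0.84 ± 0.11 in N1N2 (1.79-fold higher, limma adjusted p = 0.000176) and 0.60 ± 0.11 in the combination over control (1.52-fold higher, adjusted p = 0.0296). Between the treated groups it was -0.24 ± 0.11 (95% interval -0.47 to -0.00, limma adjusted p = 0.164), which passed the threshold without N1N2 replicate 1 (0.0376). The call against control in the combination was lost when any 1 control or combined array was left out, other than control replicate 1 or combined replicate 5 (limma adjusted p 0.0501 to 0.0844), and the N1N2 call was lost with median centring (0.0660) and with slide as a block (0.166).

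**Figure D3:**
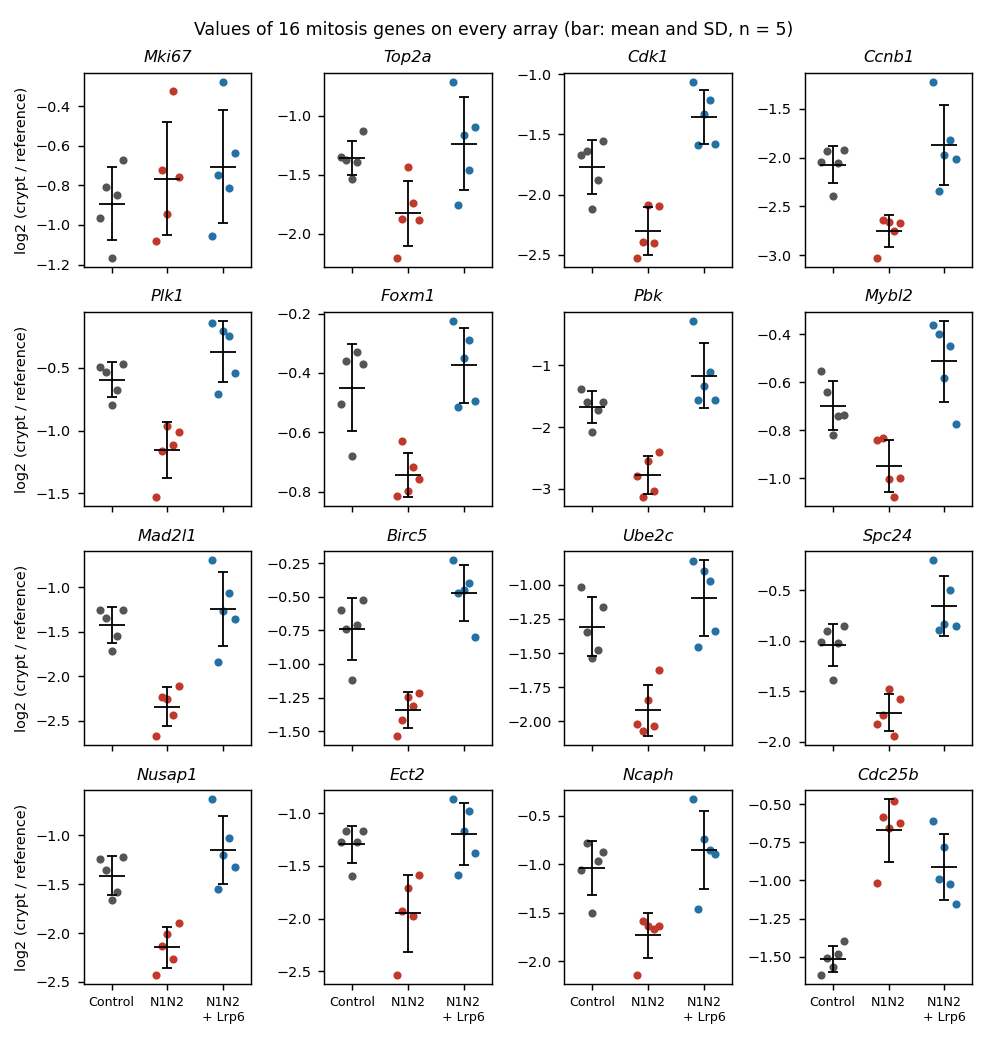
Log2 ratio of crypt over reference RNA on every array for 16 genes (points, by group, 5 arrays each), with group mean and SD, each panel on its own y axis. N1N2 points lie lowest in most panels (for example Pbk at a mean of -2.78 against -1.68 in controls), Mki67 overlaps between all groups, and Cdc25b is lowest in controls.

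Of the 2 factors of the mitotic programme, 1 was lower in N1N2 and both were higher in the combination than in N1N2. Foxm1, a forkhead factor that activates late cell cycle genes, measured -0.51, -0.36, -0.68, -0.33 and -0.37 over the controls, -0.81, -0.63, -0.80, -0.72 and -0.76 over the N1N2 arrays and -0.23, -0.52, -0.35, -0.29 and -0.49 over the combined arrays. All N1N2 values except that of replicate 2 lay below every control, and no N1N2 array overlapped with the combination. Foxm1 changed by -0.29 ± 0.08 in N1N2 (limma adjusted p = 0.0301, lost in 14 of 26 alternative analyses) and by 0.37 ± 0.08 in the combination over N1N2 (adjusted p = 0.00723). Mybl2, the factor B-Myb that joins the complex on CHR promoters, had log2 ratios of -0.55, -0.64, -0.82, -0.74 and -0.73 on the control arrays, -0.84, -0.83, -1.00, -1.08 and -1.00 on the N1N2 arrays and -0.36, -0.40, -0.58, -0.45 and -0.77 on the combined arrays. N1N2 and control arrays of Mybl2 did not overlap, but the closest values, control replicate 3 and N1N2 replicate 2, were nearly equal. Its change was -0.25 ± 0.09 in N1N2 (limma adjusted p = 0.0707, not past the threshold) and 0.44 ± 0.09 in the combination over N1N2 (adjusted p = 0.00405).

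In the spindle checkpoint, 1 of 5 genes was lower in N1N2 and 3 of 5 were higher in the combination than in N1N2. Mad2l1, the checkpoint protein Mad2 that holds back the anaphase-promoting complex, stood at -1.26, -1.35, -1.71, -1.55 and -1.25 in control crypts, at -2.67, -2.23, -2.26, -2.43 and -2.11 after N1N2 and at -0.70, -1.84, -1.26, -1.07 and -1.35 after the combination. N1N2 lay apart from the controls on every array, and combined replicate 2 lay below every control. Mad2l1 was 1.89-fold lower in N1N2 (change -0.92 ± 0.17, limma adjusted p = 0.00337) and 2.14-fold higher in the combination than in N1N2 (change 1.10 ± 0.17, adjusted p = 0.00104). Bub1b and Bub3, its partners in the checkpoint complex, changed by -0.26 and -0.32 in N1N2, not past the threshold, and by 0.48 and 0.49 in the combination over N1N2, past it. The checkpoint kinases Bub1 and Ttk passed in neither comparison (Bub1 -0.19 and 0.39, Ttk -0.23 and 0.23). Ttk was dim, with a probe well above background on 5 control, 2 N1N2 and 2 combined arrays.

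The chromosomal passenger complex corrects wrong attachments, and its subunits did not all change. Birc5, the subunit survivin, measured -0.60, -0.74, -1.12, -0.71 and -0.52 over the controls, -1.53, -1.41, -1.24, -1.31 and -1.21 over the N1N2 arrays and -0.23, -0.47, -0.45, -0.40 and -0.80 over the combined arrays. N1N2 stood below the controls on every array, and below the combination with a wider gap. Birc5 fell by 1.52-fold (limma adjusted p = 0.00464) and was 1.83-fold higher in the combination than in N1N2 (adjusted p = 0.000545). Cdca8, the subunit borealin, changed by -0.31 ± 0.08 and 0.61 ± 0.08 in the same comparisons, both past the threshold, and its call in N1N2 was lost in 12 of 26 alternative analyses. Incenp, the scaffold of the complex, changed by -0.06 (95% interval -0.46 to 0.34) and 0.21 (95% interval -0.19 to 0.61), and neither passed.

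Anaphase genes fell into a pair that changed and a pair that did not pass. Ube2c, the conjugating enzyme of the anaphase-promoting complex, had log2 ratios of -1.02, -1.35, -1.53, -1.47 and -1.16 on the control arrays, -2.02, -2.07, -1.84, -2.03 and -1.62 on the N1N2 arrays and -0.82, -1.46, -0.90, -0.97 and -1.34 on the combined arrays. N1N2 values lay below all controls, but N1N2 replicate 5 lay within 0.1 of control replicate 3. Ube2c was 1.53-fold lower in N1N2 (limma adjusted p = 0.0103) and 1.77-fold higher in the combination than in N1N2 (adjusted p = 0.00156). Cdc20, the activator of the complex, changed by -0.44 ± 0.13 and 0.70 ± 0.13, past the threshold both times, though the call in N1N2 was lost in 16 of 26 alternative analyses. Pttg1, the separase inhibitor securin, changed by 0.04 (95% interval -0.21 to 0.29) and -0.02 (-0.28 to 0.23). Espl1, separase itself, changed by -0.03 (-0.36 to 0.31) and 0.04 (-0.30 to 0.38), so the intervals of both genes span 0.

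At the centromere and kinetochore, 3 of 8 measured genes were lower in N1N2, and 7 of 8 were higher in the combination than in N1N2. The Ndc80 complex, which grips microtubules, is made of Ndc80, Nuf2, Spc24 and Spc25. Spc24 stood at -1.01, -0.91, -1.39, -1.03 and -0.86 in control crypts, at -1.83, -1.74, -1.48, -1.94 and -1.58 after N1N2 and at -0.20, -0.89, -0.84, -0.50 and -0.85 after the combination. Control and N1N2 values came closest between control replicate 3 and N1N2 replicate 3, without overlap, and every combined array lay above every N1N2 array. Spc24 was 1.60-fold lower in N1N2 (limma adjusted p = 0.00667) and 2.08-fold higher in the combination than in N1N2 (adjusted p = 0.000517). Nuf2 and Spc25 also passed in both comparisons, at -0.62 and -0.63 in N1N2 and 0.84 and 0.91 in the combination over N1N2. The Spc25 call in N1N2 was lost in 13 of 26 alternative analyses. Ndc80 itself stood at -0.40 ± 0.16 in N1N2 (limma adjusted p = 0.130) and passed in the combination over N1N2 (0.66 ± 0.16, adjusted p = 0.0122).

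Of the centromere proteins outside that complex, 3 of 4 passed only in the combination over N1N2. Cenpa, the histone H3 variant that marks centromeres, and Cenpk and Cenpn, of the inner kinetochore, changed by -0.17, -0.38 and -0.26 in N1N2, none past the threshold, although a second, separate Cenpk probe passed there at -0.42. They changed by 0.38, 0.84 and 0.37 in the combination over N1N2, all past it. Cenpe, a kinetochore motor, passed in neither comparison, at 0.04 (95% interval -0.29 to 0.38) and -0.07 (-0.41 to 0.26).

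Of the spindle motors and microtubule proteins, 3 of 9 were lower in N1N2 and 6 of 9 were higher in the combination than in N1N2. Nusap1, which bundles spindle microtubules, measured -1.24, -1.36, -1.66, -1.58 and -1.22 over the controls, -2.43, -2.13, -2.01, -2.26 and -1.89 over the N1N2 arrays and -0.63, -1.55, -1.20, -1.03 and -1.33 over the combined arrays. The N1N2 arrays lay below both other groups without overlap, and combined replicate 1 was the highest of the 15. Nusap1 was 1.66-fold lower in N1N2 (limma adjusted p = 0.00684) and 2.00-fold higher in the combination than in N1N2 (adjusted p = 0.000955). Kif11, the motor that pushes the spindle poles apart, and Tpx2, the activator of Aurora A on the spindle, passed in both, at -0.63 and -0.34 and then 0.74 and 0.62. In N1N2 the Tpx2 call was lost in 15 of 26 alternative analyses and its sign turned in 1 more, and the Kif11 call was lost in 11. Kif2c (a microtubule depolymerase), Kif4 and Kif22 (motors bound to chromosome arms) passed only in the combination over N1N2, at 0.40, 0.54 and 0.43. Kif15 (-0.25 and 0.23), Dlgap5 (-0.24 and 0.35) and Hmmr (-0.05 and 0.12) passed in neither, and Hmmr had a value of 0.50 on N1N2 replicate 1 against -0.65 on the nearest N1N2 array. Its SD over the N1N2 arrays was 0.62.

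Among the genes of the midzone and cytokinesis, 3 of 7 were lower in N1N2 and 3 of 7 were higher in the combination than in N1N2. Ect2, the exchange factor that activates RhoA for the contractile ring, had log2 ratios of -1.27, -1.17, -1.59, -1.27 and -1.17 on the control arrays, -2.53, -1.93, -1.71, -1.98 and -1.59 on the N1N2 arrays and -0.87, -1.59, -1.17, -0.97 and -1.38 on the combined arrays. N1N2 replicate 1 lay well below the other 4, and N1N2 replicate 5 overlapped with the lowest control and the lowest combined array. Ect2 changed by -0.65 ± 0.17 in N1N2 (limma adjusted p = 0.0212, lost in 7 of 26 alternative analyses) and by 0.75 ± 0.17 in the combination over N1N2 (adjusted p = 0.00765). Racgap1, which forms centralspindlin with Kif23, passed in both (-0.60 and 0.72). Kif23 passed in neither, at 0.06 (95% interval -0.14 to 0.26) and 0.14 (-0.06 to 0.34). Anln, the ring scaffold anillin, was lower in N1N2 (-0.42, limma adjusted p = 0.0426, lost in 15 of 26 alternative analyses and turned in sign in 1 more) and did not pass in the combination over N1N2 (0.31). Kif20a, a midzone motor, passed only in the combination over N1N2 (0.62), and Prc1, which cross-links midzone microtubules, and Kif20b passed in neither (Prc1 -0.47 and 0.48, Kif20b -0.14 and 0.22).

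For condensin and chromosome structure, 2 of 7 genes were lower in N1N2 and 3 of 7 were higher in the combination than in N1N2. Ncaph, the kleisin subunit that closes the condensin I ring, stood at -1.06, -0.78, -1.50, -0.97 and -0.87 in control crypts, at -2.14, -1.58, -1.63, -1.67 and -1.63 after N1N2 and at -0.33, -1.46, -0.74, -0.86 and -0.89 after the combination. Without N1N2 replicate 1, which was the lowest array, the other 4 N1N2 arrays lay within 0.1 of each other, below every control. Ncaph changed by -0.70 ± 0.18 in N1N2 (limma adjusted p = 0.0225, lost in 9 of 26 alternative analyses) and by 0.88 ± 0.18 in the combination over N1N2 (adjusted p = 0.00516). Smc2, an ATPase shared by both condensins, passed in both (-0.62 and 0.70), with its call in N1N2 lost in 10 of 26 alternative analyses. Its partner Smc4 and the condensin I subunits Ncapd2 and Ncapg passed in neither, at -0.39, -0.22 and -0.22 in N1N2 and 0.28, 0.33 and 0.19 in the combination over N1N2.

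Ki-67, the product of Mki67, is widely stained to count dividing cells, and Top2a is also used as a marker of them. Top2a, the topoisomerase that untangles sister chromatids, measured -1.34, -1.37, -1.53, -1.39 and -1.13 over the controls, -2.20, -1.88, -1.44, -1.74 and -1.88 over the N1N2 arrays and -0.71, -1.76, -1.17, -1.46 and -1.09 over the combined arrays. N1N2 replicate 3 lay within the control range, and combined replicate 2 lay within the N1N2 range. Top2a changed by -0.47 ± 0.17 in N1N2 (limma adjusted p = 0.0830, not past the threshold) and by 0.59 ± 0.17 in the combination over N1N2 (adjusted p = 0.0258, lost in 10 of 26 alternative analyses). Mki67, whose product coats mitotic chromosomes, had log2 ratios of -0.96, -0.81, -1.17, -0.85 and -0.67 on the control arrays, -1.08, -0.72, -0.95, -0.32 and -0.76 on the N1N2 arrays and -1.06, -0.75, -0.28, -0.81 and -0.63 on the combined arrays. The 3 groups overlapped over nearly their whole range. Its change was 0.13 ± 0.15 in N1N2 (95% interval -0.19 to 0.45, limma adjusted p = 0.652) and 0.06 ± 0.15 in the combination over N1N2 (95% interval -0.26 to 0.38, adjusted p = 0.853). A second Mki67 probe, nearly as bright (mean red signal 10810 against 12320), gave 0.18 and -0.03. Whether Mki67 differs from the genes that fell was not tested.

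Of the 56 genes, 17 had several probes. All 3 probes of Birc5, Ccnb1 and Mad2l1 and both of Ube2c, Cdca8 and Racgap1 passed in both comparisons in the same directions, though the Mad2l1 probes that were dimmer gave smaller changes (-0.35 and -0.33 in N1N2). A second Cdk1 probe with a mean red signal of 89.6, against 667 for the first, changed by 0.05 and 0.08 and did not pass, and the third Cdk1 probe was not kept. Second probes of Foxm1 (mean red signal 90.3) and Tpx2 (117) did not pass in either comparison. Second probes of Mybl2 (-0.53) and Cenpk (-0.42) passed as lower in N1N2 where the first did not, and that of Dlgap5 passed as higher in the combination over N1N2 (0.40). The second Nuf2 probe was well above background on only 2 arrays. Second probes of Pttg1 (-0.10 and -0.09) and Incenp did not pass either.

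Split by the CHR core in their windows, 13 of the 32 tested genes with the core were lower in N1N2 (median -0.31), and 8 of the 14 tested genes without it (median -0.61). When the combination was compared with N1N2, 21 of 32 with the core were higher (median 0.49) and 10 of 14 without it (median 0.84). Split by the CCAAT box, 14 of 33 genes with it and 7 of 13 without it were lower in N1N2, and 22 of 33 and 9 of 13 were higher in the combination over N1N2. Genes with and without each motif were thus found on both sides, and no difference between them was tested.

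The other genes of the mitotic programme on a fixed list (75 listed, 68 measured) showed 17 lower and 1 higher (Psrc1, 0.51) in N1N2, with a median of -0.21. The largest of these changes were those of Cenpp (-1.07), Wee1 (-0.94), Cenph (-0.71), Lmnb1 (-0.66) and Cdca5 (-0.66). Cenpp and Cenph are inner kinetochore proteins, Wee1 is the kinase that holds Cdk1 inactive, Lmnb1 is lamin B1 and Cdca5 is sororin, which protects sister cohesion. In the combination over N1N2, 29 of the 68 were higher and none lower (median 0.33, limma, 39 higher and 1 lower at an unadjusted p under 0.05), led by Cenpp (1.39), Oip5 (1.16), Cenpw (1.03), Cenph (1.02) and Cdca5 (0.99). In the combination over control none of the 68 passed (15 higher and 1 lower at an unadjusted p under 0.05).

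Of 37 measured DNA replication genes, which act in S phase before mitosis, 23 were lower in N1N2 (median -0.51) and 32 were higher in the combination over N1N2 (median 0.80). Of 16 measured G1 phase regulators, 2 were lower in N1N2 (Cdkn2c at -0.57 and E2f1 at -0.39, median over the list 0.01). In the combination over N1N2, 5 of 16 were higher (E2f1, Cdkn2c, Ccnd1, Ccne1 and Cdk4, median 0.10). The windows of the DNA replication genes held a CHR core in 5 of 30 genes (16.7%), against 33 of 47 of the mitosis genes (70.2%) and 28 of 58 of the other mitosis genes (48.3%). A CCAAT box stood in 19 of 30 (63.3%), 34 of 47 (72.3%) and 37 of 58 (63.8%) of the same lists. The lists were not tested against each other.

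**Figure D4:**
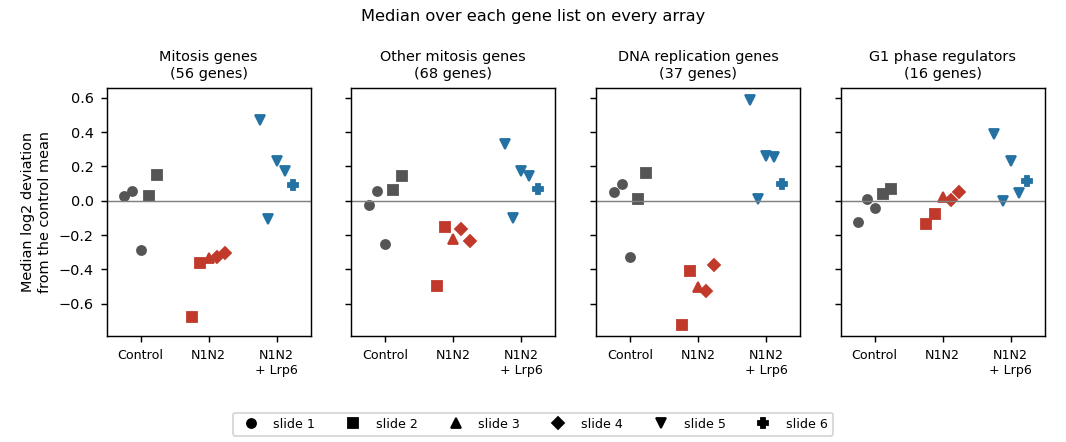
Median over each gene list of the log2 deviation from the control mean, per array (points by group, marker shape by slide), for the 56 mitosis genes, the other mitosis genes, DNA replication genes and G1 phase regulators. In the left panel the N1N2 arrays lie at -0.68 to -0.30, below the controls (-0.28 to 0.15), and the combined arrays at -0.10 to 0.47, whereas in the G1 panel control and N1N2 arrays overlap.

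Markers of other cell types also moved between the groups. The crypt epithelium list had all 9 measured genes well above background on every array, with mean log2 ratios of 5.30 ± 0.05 (SD, n = 5) in controls, 5.48 ± 0.23 in N1N2 and 5.33 ± 0.23 in the combination. Of the 9, only Krt18, a keratin of simple epithelium, passed, higher in N1N2 (0.83) and lower in the combination than in N1N2 (-0.58). Goblet cell markers rose in N1N2, with 5 of 10 higher, and their mean log2 ratio was 5.16 to 5.39 on control arrays, 5.90 to 6.38 on N1N2 arrays and 5.27 to 6.02 on combined arrays, where 4 of 10 were lower than in N1N2. Enteroendocrine markers had 3 of 12 higher in N1N2, with means of 3.18 to 3.52 on control, 3.87 to 4.42 on N1N2 and 3.67 to 4.00 on combined arrays, where 2 of 12 were lower than in N1N2. Stromal and muscle markers had 2 of 18 lower in N1N2 and 7 of 18 lower in the combination than in N1N2, with means of -2.89 to -2.32, -3.00 to -2.67 and -3.66 to -3.05, and 14 to 18 of the 18 were well above background on an array. Immune markers had 2 of 15 lower in N1N2 and none past the threshold in the combination over N1N2 (limma, 1 higher and none lower at an unadjusted p under 0.05), with means of 1.30 to 1.63, 0.97 to 1.52 and 0.94 to 1.23. Of the enterocyte, Paneth and tuft cell lists, 1 tuft cell gene was higher in N1N2 and no other gene passed in either of the 2 comparisons (limma, at most 1 gene of a list in each direction at an unadjusted p under 0.05). Over all features, 5.15% were lower and 6.57% higher in N1N2, and 7.26% were lower and 9.45% higher in the combination over N1N2. In the combination over control, 2 of 10 goblet and 2 of 12 enteroendocrine markers were higher. There 2 of 18 stromal and muscle markers were lower and no marker of the other lists passed, against 0.221% of all features higher and 0.155% lower. The part of these cell types in the changes of the mitosis genes was not tested.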

How the data were processed

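Small-intestinal crypt RNA of 15 samples was labelled with Cy5 and hybridised beside a Cy3-labelled common reference, with no dye swap, per the labels' protocols. Per the file headers, Agilent Feature Extraction 11.0.1.1 read median spot and background intensities and wrote a log10 ratio after its own background subtraction and dye normalization. A table of log2 ratios was deposited by the authors too, for which the submitters' processing notes list R 3.0.0 and limma 3.6.7, with the steps not given there. Its columns correlated with the values computed here at 0.99998 or more, and its column medians were 0.0144 to 0.0286.

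Here, R 4.3.3 and limma 3.58.1 (with data.table, version 1.17.8) were used. Spots flagged as uneven or as outliers were left out, the background was corrected by normexp (offset 50), and ratios were normalized by loess within arrays. Of 39429 probes, 28480 were well above background (red channel) on 4 or 5 arrays in some group and were kept. Each gene was represented by its brightest probe (red signal averaged over all arrays), named through RefSeq accessions. One limma model of group means covered all 15 arrays, with Benjamini-Hochberg adjustment over 23933 features and a threshold of 0.05. The fit uses the arrays that have a value where a spot was left out (366 features). Normexp was applied to median intensities because the files held no mean intensity columns. The precision is limited by the number of arrays, and p-values set a difference of group means against the spread between arrays. The script was tested on simulated data.

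Every gene described is named under its role. Values of all arrays are given for Mki67, Top2a, Cdk1, Ccnb1, Plk1 and Foxm1 and for the gene of each role with the largest change past the threshold, and for Cdc25b, chosen after its values were seen. Of the other lists, at most 5 genes per comparison are named, those with the largest changes past the threshold. The genes and lists were chosen with earlier results of these data known.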

Additional observations from a re-analysis of the deposited data

Results flagged for a closer look

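In each group of 5 arrays, a value was picked out when its gap to the nearest other value exceeded 0.71 of the group's range (Dixon's rule). This happened in 16 of 168 sets of values (56 genes in 3 groups), and chance gives about 1 in 20.

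N1N2 replicate 1 stood apart in 11 genes. Its log2 ratio was the lowest of its group for Ccnb2 (-1.79, nearest -1.42), Aurka (-2.23, nearest -1.89), Nuf2 (-2.48, nearest -2.17), Kif11 (-1.66, nearest -1.46) and Kif22 (-1.17, nearest -0.79). The same array was lowest for Kif20a (-2.19, nearest -1.58), Prc1 (-1.63, nearest -1.25), Anln (-2.78, nearest -2.35), Ncapd2 (-1.87, nearest -1.40) and Ncaph (-2.14, nearest -1.67). For Hmmr, which codes for a spindle protein and hyaluronan receptor, it was the highest (0.50, nearest -0.65).

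Control replicate 3 stood apart in 5 genes, each time as the lowest of its group. Its values were -1.83 for Aurka (nearest -1.54), -1.65 for Cenpa (nearest -1.24), -2.31 for Cenpk (nearest -1.73), -1.59 for Ect2 (nearest -1.27) and -0.68 for Ncapg (nearest -0.46). With both arrays left out together, the counts past the threshold stayed within 1.5 times of those with all arrays, apart from 1 gene then lower in the combination than in N1N2.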

How the results depend on the processing

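Of 26 alternatives, the authors' deposited table and no background subtraction kept every gene's side of the threshold in N1N2 against control. In that comparison (26 lower, 1 higher) median centring gave 12 lower and 0 higher. Scaling arrays to the same median log ratio gave 0 lower and a median of -0.0291. Aurka (0.0607), Tpx2 (0.251) and Anln (0.132) turned positive there, and none of the 3 passed the threshold. The scaling multiplied control replicates 4 and 5 by 1.66 and 1.42 and other arrays by 0.77 to 1.20, and these genes have negative log ratios. The factors follow from array medians near 0 (0.012 and 0.014 on control replicates 4 and 5), not from the spread of the ratios. Slide as a fixed block, where 4 arrays carry the comparison, gave 0 lower, 0 higher and a median of -0.570. Leaving out the N1N2 arrays on the slide shared with controls gave 9 lower, and leaving out each array gave 14 to 30.

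In the combination over N1N2 (37 higher), scaling gave 9 and the combined array on its own slide alone gave 0. Leaving out each array gave 35 to 44 higher and 0 to 1 lower, and leaving out control replicate 3 and N1N2 replicate 1 together gave 1 lower, Cdc25b. Against control, the combined array on its own slide alone gave a median of 0.09, against 0.18 with all arrays. The count of genes higher than control, 1 as reported, was 0 with flagged spots kept in the correction, median centring, scaling (median 0.396) and the replicate block. Slide as a random block gave 16 (its correlation was estimated at -0.18), with 1744 of all 23933 features higher there, against 53 as reported. Leaving out the shared-slide N1N2 arrays gave 2, and leaving out each array gave 0 to 3. The cause of these differences was not tested beyond the constructions named.

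Same-numbered deviations correlated between -0.43 and 0.62. The 4 of 15 pairs over 0.1 were all among the 5 pairs of control and N1N2 arrays (0.62, 0.29, 0.38 and 0.13, against -0.01 for replicate 3), so not every pair passed and the numbers were not taken as pairing the arrays. With the replicate block, 18 genes were lower in N1N2, 37 were higher in the combination over N1N2, and 0 passed in the combination over control. Over all features, calls ranged from 109 to 4109 in N1N2 against control (2806 as reported), from 217 to 7040 in the combination over N1N2 (3999) and from 1 to 2915 in the combination over control (90). Of the calls in N1N2, 56.1% were higher as reported, 45.8% with median centring, 70.2% with scaling, 70.6% with flagged spots kept in the correction only and 71.6% with slide as a fixed block. In the combination over N1N2 it was 56.5% as reported, 77.2% with median centring and 28.6% with the combined array on its own slide alone (62 higher, 155 lower). In the combination over control it was 58.9% as reported and 38.7% with the scanner software's log ratio. Signal over background limits Ttk and Ncapg, which were well above background on some arrays only.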
